A study of Mus musculus with 14 samples.

Results

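The 40 genes described here belong to the NF-kB pathway and to the inflammatory cytokines that it controls. They were chosen by name, with earlier results of these data known. Their roles are 9 cytokines, 10 receptors, adaptors and kinases, 5 NF-kB subunits, 7 inhibitors and nuclear IkB proteins and 9 other induced genes. A probe carrying a RefSeq identifier was found for 39 of them, all but Bcl2a1b. Of these, 34 were tested, among 11481 genes of the array that could be tested. RNA of blood cells was measured on 14 one-colour Agilent mouse arrays, each with its own mouse label. SS mice (8) had met a hostile or adverse social environment in the third postnatal week, and SI mice (6) had been isolated as juveniles in that week. Every mouse in both groups was conditioned with a cocaine dose below the threshold for place preference (5 mg/kg) and went through extinction and withdrawal, with blood taken 24 hours later. The labels give no strain and no genotype, and no mouse without stress or without cocaine is among the samples used here, so each value is a difference between 2 kinds of early adversity. The first slide held 4 SS and 4 SI mice labelled male, and the second slide held 4 SS and 2 SI mice labelled female.

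NF-kB is a family of paired transcription factors that IkB proteins hold inactive in the cytoplasm. Ligands such as TNF, IL-1, CD40 ligand and bacterial products act through adaptors and kinases to destroy IkB, and the freed dimers enter the nucleus, bind kappa B sites and switch on cytokines, adhesion molecules and also their own inhibitors, which end the response. In blood, monocytes and neutrophils are known for a rapid burst of IL-1, TNF and chemokines through this pathway, and B cells for the slower route through RelB and the NFKB2 product.

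The letters that NF-kB reads stand just before the start of many of the members, and 6 examples are shown because they belong to members described mouse by mouse below (Csf1, Sod2, Tnip1, Tnfaip2 and Nfkb2) or to the classical inhibitor of the pathway (Nfkbia). RefSeq promoters (build GRCm38.p6) were given for 31 of the 40 members. The kappa B consensus was read here as GGG, then A or G, any 2 bases, C or T at 2 positions, then CC. In the 250 bases before the start, 15 of the 31 held the kappa B consensus on either strand, against 8.23% of all genes in that table and 10.2% of the tested genes. The narrower motif (GGGA, then any 2 bases, then TTCC, on either strand), every match of which is also a match of the consensus, was found in 5 of the 31 (Csf1, Cxcl2, Il6, Nfkb2 and Nfkbia) against 1.36% of all genes. The members were listed for their tie to NF-kB, so these shares describe the list. A match is a run of letters and not a measured binding site. Capitals mark 1 match in each stretch, which runs 5' to 3' on the strand of the gene. They come from chr3:107760589-107760648 (minus strand) for Csf1, chr17:13007731-13007790 (plus strand) for Sod2, chr11:54962963-54963022 (minus strand) for Tnip1, chr12:111442612-111442660 (plus strand) for Tnfaip2, chr19:46304673-46304732 (plus strand) for Nfkb2 and chr12:55492648-55492701 (minus strand) for Nfkbia.
Csf1: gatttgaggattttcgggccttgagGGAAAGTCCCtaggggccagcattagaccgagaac
Sod2: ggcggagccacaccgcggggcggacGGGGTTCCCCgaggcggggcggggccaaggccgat
Tnip1: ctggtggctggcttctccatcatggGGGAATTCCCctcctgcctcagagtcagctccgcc
Tnfaip2: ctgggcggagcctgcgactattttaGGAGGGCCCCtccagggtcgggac
Nfkb2: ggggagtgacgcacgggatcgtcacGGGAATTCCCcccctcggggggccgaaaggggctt
Nfkbia: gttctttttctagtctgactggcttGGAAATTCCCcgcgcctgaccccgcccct
In Csf1, Tnfaip2 and Nfkbia the motif lies on the opposite strand, so the capitals show its reverse complement. The Traf1 promoter, the other member that passed, held no match of these letters in its window. Neither did the promoters of Il1rn, Tnfrsf1b, Rela, Bcl3 and Tnf, which are also described mouse by mouse. For Nfkb1, Relb and Ccl4 no promoter was given.

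Between 34.8% and 47.7% of the spots of an array were well above background. All values below are scaled log2 signals, which are log2 processed signals minus the 75th percentile of the array over probes detected on every array. They compare mice for 1 probe and never 1 gene with another. The array of SI mouse 4 on the first slide stood apart: its correlation with another array of its group went down to 0.833 across probes, against 0.927 or more within the other groups. It gave the lowest value of its group in 29 of the 34 tested members and in 56.4% of all tested genes. Members are therefore given with and without it. Where an SI mouse is the lowest of its group, leaving it out lowers the SS minus SI difference of its slide by construction. Other mice also moved members: the difference over both slides turned to 0.01 for Cd40 without SS mouse 2 and to 0.17 for Icam1 without SI mouse 27. Y-linked Eif2s3y and Ddx3y were well above background on 6 of 6 arrays labelled female and on 0 of 8 labelled male, against the sex labels. X-linked Xist was well above background on 5 of 8 arrays labelled male by 1 probe and on 1 by another. Both Xist probes were so on 0 of 6 arrays labelled female. The groups are therefore called by slide. Sex label, slide and scan date are the same division of the arrays, and SS and SI arrays lie in different columns of each slide, so sex label and slide cannot be told apart, nor can stress group and array column.

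Across both slides the members lay lower in SS mice than in SI mice, and 3 of the 34 fell: the growth factor Csf1, the mitochondrial superoxide dismutase Sod2 and the receptor adaptor Traf1 (limma, adjusted p under 0.05 over all probes). No member rose. Among all tested genes 0.958% fell and 8.61% rose in the same comparison. All 34 members had a log2 difference (SS minus SI) below 0 (32 in the authors' deposited value table, where Gadd45b and Icam1 lay above 0), as did 62.5% of all genes, and their median difference was -0.44 against -0.14 over all genes. At an unadjusted p under 0.05, 13 members were lower in SS mice, against 9.99% of all genes. The arrays measure RNA of a mixed blood sample, so fewer cells of a type and less RNA per cell cannot be told apart. Replicates were counted as separate mice because each array carries its own mouse label. Whether SS mice 1 and 01b of the first slide are separate animals cannot be told from these labels. With either left out, Csf1 and Sod2 passed and Traf1 did not.

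**Figure D1:**
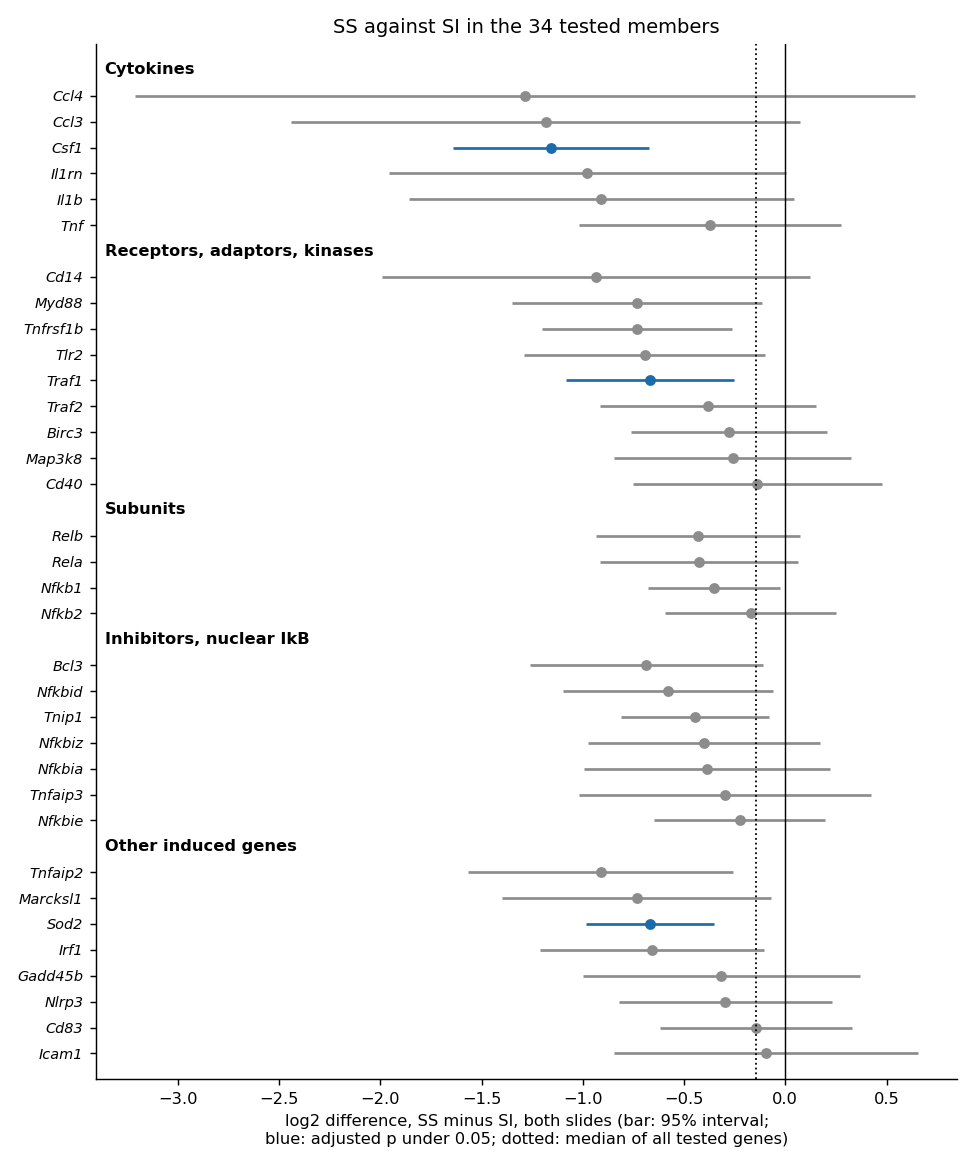
Log2 difference between SS and SI mice over both slides for each of the 34 tested members, grouped by role; points are limma estimates, bars are 95% intervals, blue marks adjusted p under 0.05, and the dotted line is the median of all tested genes. All 34 points lie left of 0, from -1.29 for Ccl4 to -0.09 for Icam1 (32 lie there in the authors' deposited value table), and the bars of 13 members stay clear of 0, among them Csf1, Sod2 and Traf1, the 3 that pass after adjustment.

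Cytokines had the lowest median of the 5 role groups, at -1.07 over 6 tested genes, of which 1 fell. Csf1 encodes macrophage colony-stimulating factor, which keeps monocytes and macrophages alive. In the order SI mice 6, 4, 7 and 5, Csf1 stood at -0.50, -0.82, -0.53 and -1.17 on the first slide, and in the order SS mice 1, 2, 3 and 01b it stood at -2.09, -1.75, -2.39 and -1.54. On the second slide it was -1.32 and -0.90 in SI mice 27 and 28 and -2.62, -1.71, -2.84 and -1.75 in SS mice 22, 20, 23 and 21. Every SS mouse lay below every SI mouse of its slide, and mouse 4 lay inside the range of its group. Csf1 fell by 1.16 on the log2 scale (SE 0.23, 95% interval -1.64 to -0.67, 8 SS and 6 SI mice, limma adjusted p = 0.00565), 2.23-fold lower in SS mice. It passed in all 14 fits that left out 1 mouse, with differences from -1.23 to -1.07, while other settings gave -0.91 (array weights) to -2.64 (the authors' deposited value table).

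Il1rn encodes the interleukin-1 receptor antagonist, a secreted blocker of IL-1 that is itself induced by inflammation. Il1rn stood at -3.14, -5.85, -3.20 and -3.08 in the SI mice and at -4.25, -4.08, -4.63 and -3.83 in the SS mice of the first slide. The second slide gave -3.28 and -3.78 in SI and -4.42, -5.43, -6.00 and -5.76 in SS mice. On the first slide mouse 4 was far below the other 3 SI mice and below all SS mice, while on the second slide both SI mice lay above all 4 SS mice. The probe was well above background on 10 of 14 arrays, the exceptions being SI mouse 4 and SS mice 20, 23 and 21. The difference over both slides was -0.98 (SE 0.46, limma adjusted p = 0.247), and without mouse 4 it was -1.41 (adjusted p = 0.00363). Without SI mouse 27 it was -0.74.

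The chemokines Ccl3 and Ccl4, which draw monocytes and lymphocytes to a site of inflammation, spread widely among the mice. Ccl4 stood at -0.19, -6.49, 0.78 and -1.22 in the SI mice and at -4.08, -1.74, -2.36 and -4.25 in the SS mice of the first slide. Ccl4 on the second slide read -2.89 and -2.98 in SI and -4.14, -3.74, -4.83 and -3.91 in SS mice. The other 3 SI mice of the first slide lay above all 4 SS mice, and mouse 4 lay below all of them. Ccl4 differed by -1.29 (SE 0.90, limma adjusted p = 0.442) over both slides by -2.17 (adjusted p = 0.0118) without mouse 4 and by -0.80 (adjusted p = 0.660) without SI mouse 7. For Ccl3 the corresponding differences were -1.18 (limma adjusted p = 0.275), -1.74 (adjusted p = 0.00575) and -0.93 (adjusted p = 0.447). Neither gene was well above background on the array of mouse 4.

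Il1b and Tnf encode the cytokines that start the acute response. Il1b differed by -0.91 over both slides (SE 0.44, limma adjusted p = 0.269) by -1.27 without mouse 4 (adjusted p = 0.0210) and by -0.51 without SI mouse 27 (adjusted p = 0.509). Tnf differed by -0.37 (SE 0.30, adjusted p = 0.507), by -0.53 without mouse 4 (adjusted p = 0.227) and by -0.17 without SI mouse 6 (adjusted p = 0.822). The Tnf values of SI mice on the first slide, -0.98, -2.89, -2.96 and -1.43, reached from above to below all the SS mice, at -2.53, -2.37, -2.59 and -2.31. Il1a and Il6 were not well above background on any of the 14 arrays. Cxcl2, a neutrophil-attracting chemokine, was well above background on 3 of 4 SI and 2 of 4 SS arrays of the first slide and on 0 of 6 arrays of the second, and these 3 cytokines were not tested.

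Receptors, adaptors and kinases had a median difference of -0.67 over 9 tested genes, of which 1 fell. Traf1 encodes an adaptor that joins TNF receptor family members to the ubiquitin ligases of the pathway and is itself a target of NF-kB. Traf1 stood at -0.95, -1.19, -1.40 and -1.92 in the SI mice and at -2.29, -2.59, -1.89 and -2.34 in the SS mice of the first slide. In the second slide's SI mice it was -1.35 and -1.07, and in the SS mice -1.76, -1.42, -1.49 and -1.36. On the first slide 1 SI mouse, mouse 5 at -1.92, reached the range of the SS mice, and on the second the lowest SI mouse, at -1.35, and the highest SS mouse, at -1.36, nearly met. Traf1 fell by 0.67 (SE 0.19, 95% interval -1.08 to -0.25, limma adjusted p = 0.0484), 1.59-fold lower in SS mice. The call lies at the threshold: it held in 4 of 14 fits that left out 1 mouse, with adjusted p from 0.0341 to 0.115, and in 4 of 11 other settings.

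Tnfrsf1b encodes TNF receptor 2, which is found mainly on leukocytes. Tnfrsf1b stood at -1.80, -2.68, -1.65 and -1.76 in the SI mice and at -2.49, -2.48, -2.59 and -2.63 in the SS mice of the first slide. For the second slide the values were -0.86 and -1.89 in SI and -2.07, -2.26, -2.83 and -2.24 in SS mice. The other 3 SI mice of the first slide lay above all SS mice with mouse 4 below them, and on the second slide the groups did not overlap. The difference was -0.73 (SE 0.22, limma adjusted p = 0.0569), -0.88 without mouse 4 (adjusted p = 0.00617) and -0.54 without SI mouse 27. Tlr2 and Cd14, which sense bacterial lipoproteins and lipopolysaccharide, and Myd88, the adaptor that carries their signal, differed by -0.69 (adjusted p = 0.166), -0.94 (adjusted p = 0.308) and -0.73 (adjusted p = 0.159). Without mouse 4 these 3 fell by 0.93 (adjusted p = 0.00619), 1.36 (adjusted p = 0.0208) and 0.92 (adjusted p = 0.0275). Traf2, Birc3 and Map3k8, which link receptors to the kinases, and Cd40, the receptor of B cells and antigen-presenting cells for T cell help, lay between -0.38 and -0.14, with adjusted p from 0.408 to 0.809. Without other single mice they were smaller: -0.49 for Tlr2 and -0.41 for Myd88 without SI mouse 27, and -0.67 for Cd14 without SI mouse 7 (adjusted p from 0.369 to 0.497). Ripk2, the kinase of the NOD receptors, was not well above background on any array.

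The NF-kB subunits themselves had a median difference of -0.39 over 4 tested genes, and 0 passed (limma, 1 at an unadjusted p under 0.05). Nfkb1 encodes p105, the precursor of p50. Nfkb1 stood at -1.54, -2.26, -2.12 and -2.003 in the SI mice and at -2.29, -2.51, -2.10 and -2.12 in the SS mice of the first slide. The second slide gave -1.61 and -1.37 in SI and -1.99, -2.15, -1.79 and -1.92 in SS mice. Groups overlapped on the first slide, and on the second both SI mice lay above all SS mice. The difference was -0.35 (SE 0.15, limma adjusted p = 0.203), and a further probe of the gene gave -0.17 (adjusted p = 0.749).

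Rela encodes p65, the main activating subunit. Rela stood at 2.13, 0.71, 1.96 and 1.67 in the SI mice and at 0.99, 0.71, 1.66 and 0.93 in the SS mice of the first slide. Rela on the second slide read 1.81 and 1.51 in SI and 1.56, 1.37, 1.46 and 1.26 in SS mice. Mouse 4 lay at the level of the lowest SS mouse, SS mouse 3 reached to just under the other 3 SI mice of the first slide, and the groups overlapped on the second. Rela differed by -0.43 (SE 0.23, limma adjusted p = 0.316) and, without mouse 4, by -0.58 (adjusted p = 0.0515). Without SI mouse 6 the difference was -0.32 (adjusted p = 0.567).

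Relb and Nfkb2 encode the subunits of the slower, non-canonical route. Relb stood at -0.70, -1.89, -0.72 and -0.98 in the SI mice and at -2.02, -1.94, -1.26 and -2.13 in the SS mice of the first slide. In the second slide's SI mice it was -1.03 and -1.07, and in the SS mice -0.86, -1.07, -0.82 and -1.17. These values overlapped on both slides, with mouse 4 among the SS mice of the first. The difference was -0.43 (SE 0.24, limma adjusted p = 0.326), made up of -0.77 on the first slide and 0.07 on the second. Nfkb2 stood at -0.69, -1.37, -0.58 and -1.04 in the SI mice and at -1.52, -1.68, -0.89 and -1.46 in the SS mice of the first slide. For the second slide the values were -1.13 and -0.90 in SI and -0.72, -0.87, -0.54 and -0.82 in SS mice. All 4 SS mice of the second slide lay above both SI mice, while on the first, where the groups overlapped, 3 of 4 SS mice lay below all SI mice. Nfkb2 differed by -0.17 (SE 0.20, limma adjusted p = 0.649). Rel, which encodes c-Rel of lymphocytes, was not well above background on any array.

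**Figure D2:**
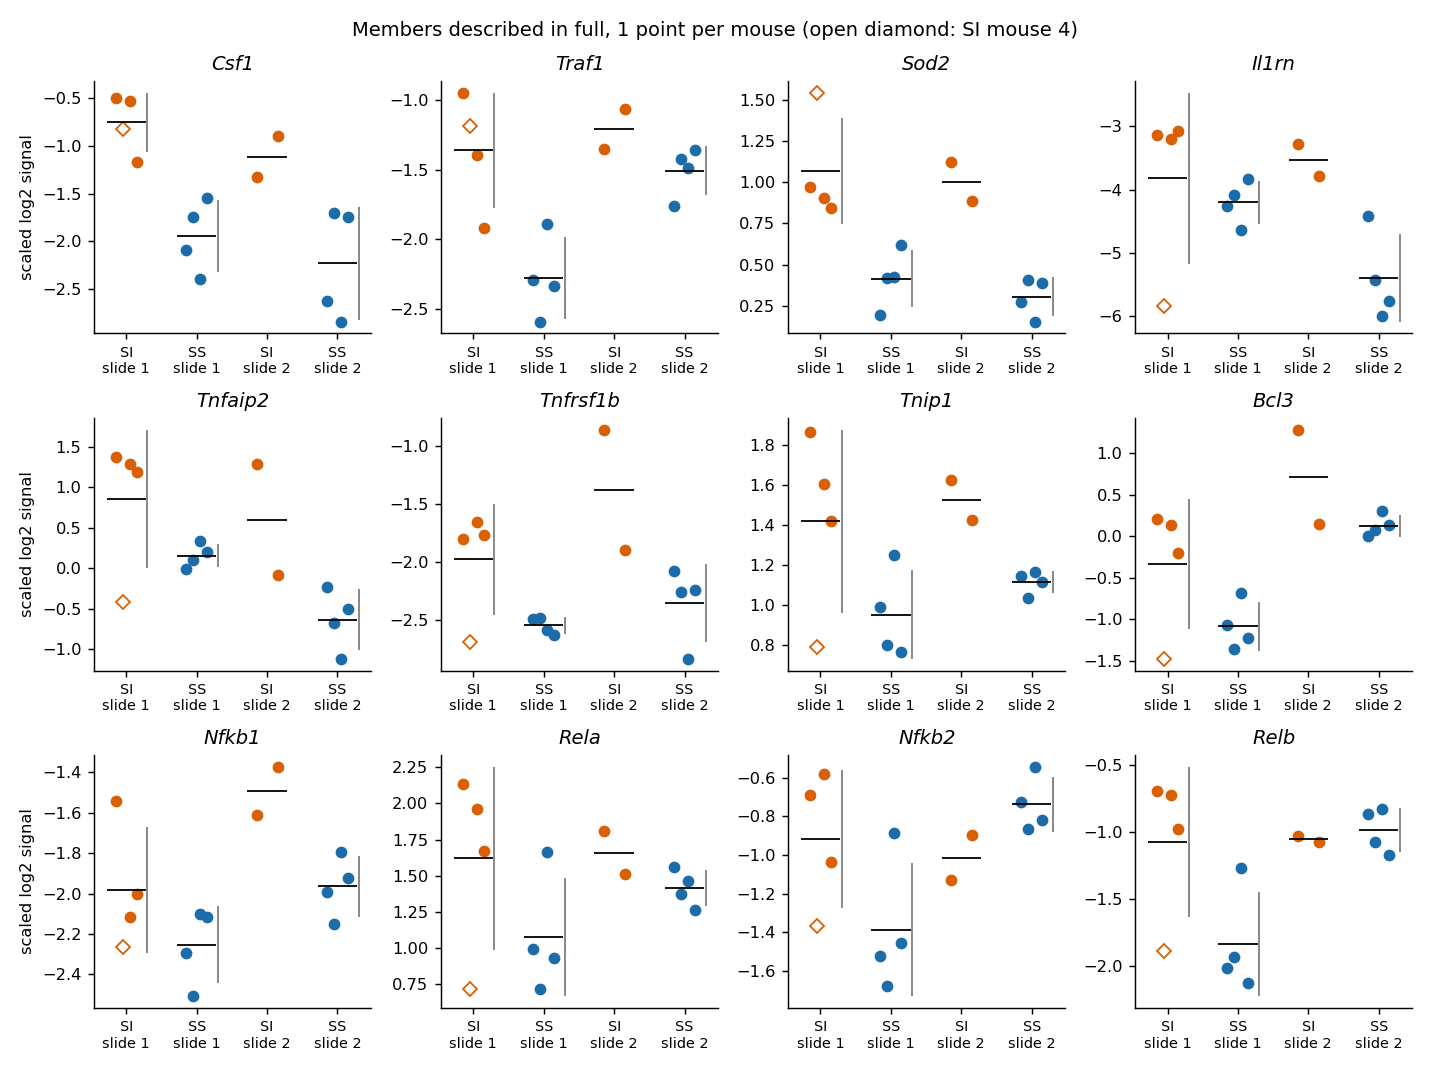
Scaled log2 signal of 12 tested members (those that passed, the 2 with the lowest p in each role group, and the subunits), with 1 point per mouse, orange for SI and blue for SS; horizontal lines are group means, and vertical bars, drawn for groups of 4, are 1 SD each side. The open diamond is SI mouse 4, which lies below the other SI mice of its slide for 9 of the 12 genes, while Csf1 and Sod2 separate SI from SS on both slides.

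Inhibitors and nuclear IkB proteins had a median difference of -0.40 over 7 tested genes. None passed in limma, and 3 were lower in SS mice at an unadjusted p under 0.05. Tnip1 encodes ABIN1, which works with A20 to shut the pathway down. Tnip1 stood at 1.87, 0.79, 1.60 and 1.42 in the SI mice and at 0.99, 0.80, 1.25 and 0.77 in the SS mice of the first slide. The second slide gave 1.63 and 1.43 in SI and 1.15, 1.04, 1.17 and 1.12 in SS mice. SI and SS mice of the second slide did not overlap, and on the first only mouse 4 kept the SI mice from lying wholly above. The difference was -0.44 (SE 0.17, limma adjusted p = 0.146), and a further probe gave -0.46. It was -0.56 without mouse 4 (adjusted p = 0.0147) and -0.36 without SI mouse 6 (adjusted p = 0.289).

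Bcl3 encodes a nuclear IkB protein that binds dimers of p50 or p52. Bcl3 stood at 0.21, -1.48, 0.13 and -0.21 in the SI mice and at -1.07, -1.36, -0.69 and -1.23 in the SS mice of the first slide. Bcl3 on the second slide read 1.29 and 0.15 in SI and -0.0026, 0.07, 0.31 and 0.13 in SS mice. Mouse 4 was the lowest of all mice on the first slide, and SI mouse 27 was high on the second, where SI mouse 28 lay among the SS mice. Bcl3 differed by -0.69 (SE 0.27, limma adjusted p = 0.157), by -0.90 (adjusted p = 0.0113) without mouse 4 and by -0.54 without SI mouse 27. The classical inhibitor Nfkbia (IkB alpha) differed by -0.39 (adjusted p = 0.461) and Tnfaip3, which encodes A20, by -0.30 (adjusted p = 0.640). Nfkbid, Nfkbiz and Nfkbie, other members of the IkB family, lay at -0.58, -0.40 and -0.23 (adjusted p = 0.189, 0.421 and 0.536).

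Other induced genes had a median difference of -0.49 over 8 tested genes, of which 1 fell. Sod2 encodes the manganese superoxide dismutase of mitochondria, which cells make in response to TNF and IL-1. Sod2 stood at 0.97, 1.54, 0.91 and 0.84 in the SI mice and at 0.20, 0.42, 0.43 and 0.62 in the SS mice of the first slide. In the second slide's SI mice it was 1.12 and 0.88, and in the SS mice 0.27, 0.41, 0.15 and 0.39. All SS mice lay below all SI mice of their slide, and here mouse 4 was the highest SI mouse. Sod2 fell by 0.67 (SE 0.15, 95% interval -0.99 to -0.35, limma adjusted p = 0.0102), 1.59-fold lower in SS mice. It passed in all 14 fits that left out 1 mouse, with differences from -0.71 to -0.58, and the authors' deposited value table gave -0.40.

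Tnfaip2 encodes a protein first found as a TNF-induced transcript of endothelial cells and made by myeloid cells. Tnfaip2 stood at 1.37, -0.42, 1.29 and 1.19 in the SI mice and at -0.01, 0.10, 0.33 and 0.20 in the SS mice of the first slide. For the second slide the values were 1.28 and -0.09 in SI and -0.23, -0.67, -1.12 and -0.51 in SS mice. The other 3 SI mice of the first slide exceeded all SS mice, mouse 4 lay below them, and on the second slide the groups were apart. The difference was -0.91 (SE 0.31, limma adjusted p = 0.0934), with -0.81 for a further probe. It was -1.17 without mouse 4 (adjusted p = 0.00309) and -0.66 without SI mouse 27. Marcksl1, a substrate of protein kinase C, and Irf1, a transcription factor induced by interferons and TNF, differed by -0.73 (adjusted p = 0.196) and -0.66 (adjusted p = 0.159). The stress-induced Gadd45b, the inflammasome sensor Nlrp3, the dendritic and B cell activation marker Cd83 and the adhesion molecule Icam1 lay between -0.32 and -0.09, with adjusted p from 0.515 to 0.900.

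Slide by slide, all members lay below 0 on the first slide and the members split on the second. With 4 SS against 4 SI mice on the first, all 34 lay below 0 (33 with median scaling, where Icam1 lay above 0, and 32 with normexp correction or in the authors' deposited value table), against 58.3% of all genes, with a median of -0.59 against -0.15. None passed in limma, as for all genes (0%), and 5 were lower at an unadjusted p under 0.05 (Csf1, Traf1, Traf2, Relb and Sod2), against 7.4% of all genes. On the second slide, with 4 SS against 2 SI mice, 24 of 34 lay below 0 (23 with quantile normalization or scaling on all probes, 29 with normexp) against 56.4% of all genes, with a median of -0.42 against -0.07. None passed, against 1.03% of all genes that fell and 3.93% that rose (79.3% of these calls higher, and 89.7% with scaling on all probes), and 6 were lower at an unadjusted p under 0.05 (Il1rn, Csf1, Tnfrsf1b, Myd88, Tnfaip2 and Sod2), against 7.14%. The second-slide median was -0.19 when SI mouse 27 was left out. Scaling on the 75th percentile of all probes moved the median of all genes to -0.32 on the first slide and to 0.09 on the second. Relative to the median of all genes, which such a shift leaves as it is, the members lay at -0.44 and -0.34, and at -0.55 and -0.16 with normexp. Without SI mouse 27 the second-slide value was -0.091.

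Every SS mouse of the first slide lay below every SI mouse for 2 members, Csf1 and Sod2, against 1.79% of all genes. The second slide showed this for 13 members against 19.6% of all genes, for 7 members against 10.3% with scaling on all probes, and for 13 members against 39% when SI mouse 27 was left out. The same held on both slides for Csf1 and Sod2, against 0.793% of all genes. In the opposite order, 3 of 34 members were higher in every SS mouse of the second slide, a share below the 18.9% of all genes. These were Cd40, Nfkb2 and Cd83, and Cd83 separated narrowly, at 0.72 in SI mouse 28 and 0.73 in SS mouse 20.

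The 10 members above 0 on the second slide were Cd40, Cd83, Nfkb2, Map3k8, Tnfaip3, Birc3, Nfkbie, Relb, Traf2 and Gadd45b, and all 10 lay below 0 on the first. The difference between the slides was tested directly: 0 of 34 members passed in limma and 0 reached an unadjusted p under 0.05, against 0.061% of all genes past the adjusted threshold and, unadjusted, 6.68% with a lower and 2.93% with a higher difference on the second slide. With array weights Cd40, Cd83 and Relb passed, against 5.49% of all genes with a higher difference. For Cd40 the difference (second minus first slide) in the main fit was 1.11 with a 95% interval of -0.02 to 2.23 (adjusted p = 0.400). For Il1rn it was -1.495, with an interval of -3.37 to 0.38 (adjusted p = 0.489). Such intervals hold 0 and also large differences, so a missing call does not show that the slides agree. Members below 0 on both slides numbered 24 of 34, against 36.8% of all genes.

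**Figure D3:**
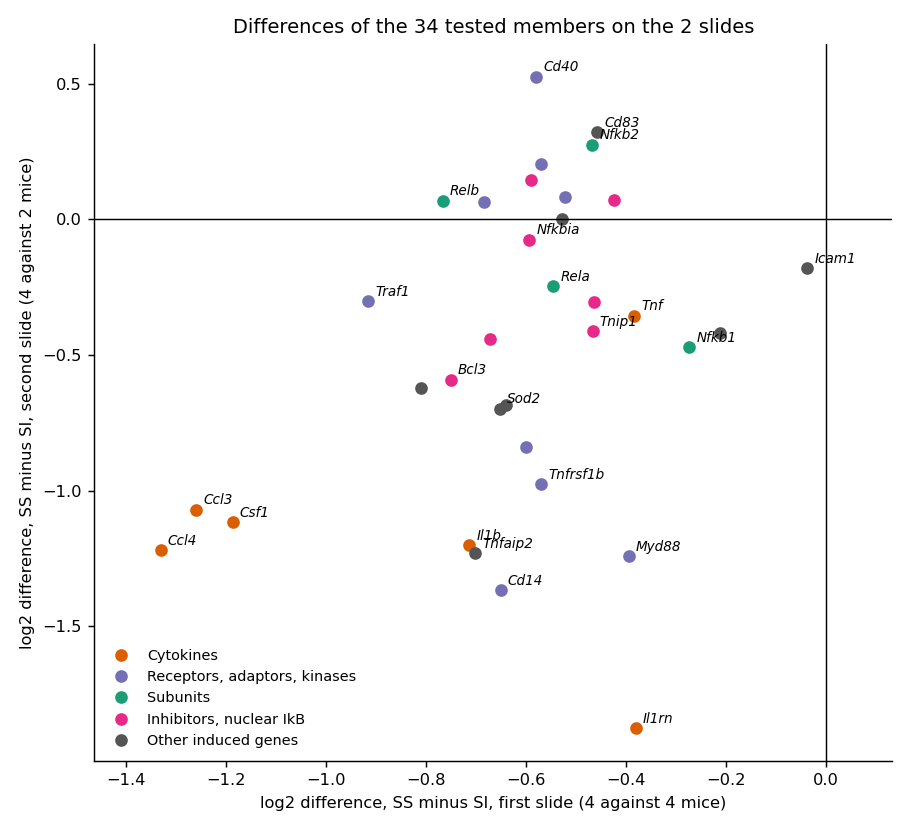
Log2 difference between SS and SI mice on the first slide (horizontal axis, 4 against 4 mice) and on the second slide (vertical axis, 4 against 2 mice) for the 34 tested members, coloured by role. All 34 points lie left of 0 (33 with median scaling), and 24 of them also lie below 0 on the second slide; Cd40, Cd83 and Nfkb2 stand highest and Il1rn lowest on the second slide.

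The array of SI mouse 4 decided how many members passed. With it left out, 17 members fell over both slides, against 9.97% of all genes, and 28 fell on the first slide, against 27.2% of all genes. On the first slide the median became -0.89, and 18 members had every SS mouse below every remaining SI mouse, against 24.8% of all genes. Ccl4 then fell by 2.90 and Ccl3 by 2.26, with Marcksl1 at -1.28 and Relb at -1.04 (limma adjusted p = 0.0144 for each of the 4). Nfkbia fell by 0.93 (adjusted p = 0.0352). Myd88 (-0.67), Tnf (-0.66), Cd83 (-0.64), Nfkb1 (-0.37), Icam1 (-0.29) and Nlrp3 (-0.06) did not pass. On the second slide, whose mice were unchanged but whose error estimate is shared with the first, Il1rn, Sod2 and Tnfaip2 passed, against 3.06% of all genes that fell. The median SD of the members among the SI mice of the first slide was 0.626 with mouse 4 and 0.240 without it, against 0.557 and 0.258 over all genes. On the array of mouse 4, 38.8% of the spots were well above background, against 43.2% or more on the other arrays of the slide. The mean centred level of 8 erythroid marker genes was 1.99 in mouse 4, the highest of the 14 arrays. In SI mice 6, 7 and 5 that level was -0.33, -1.26 and -0.12. The neutrophil marker level was -1.005 in mouse 4, against -0.27, -0.24 and -0.22 in those mice. The platelet marker level was 0.22, against -1.86, -0.41 and -0.48. T cell and NK cell marker levels of mouse 4 lay within the range of those mice. The reason mouse 4 differs was not tested.

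**Figure D4:**
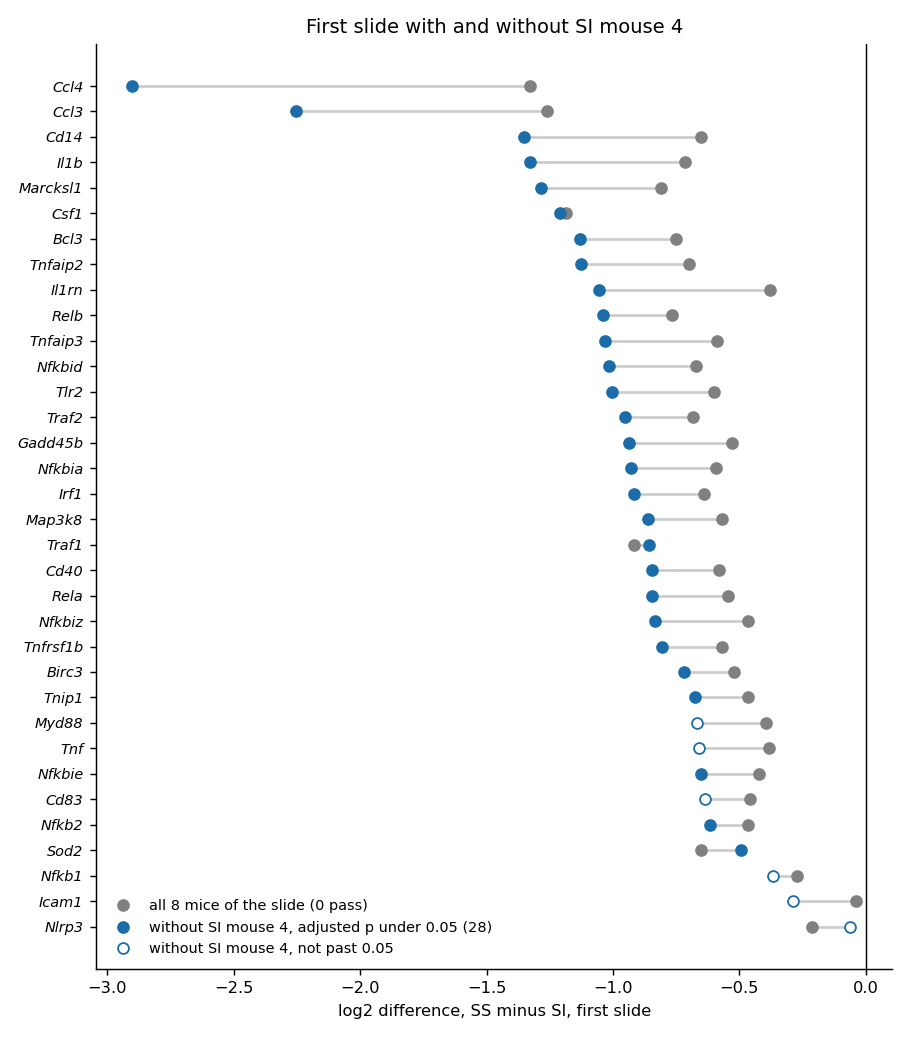
Log2 difference between SS and SI mice on the first slide for the 34 tested members with all 8 mice (grey) and without SI mouse 4 (blue, filled where adjusted p is under 0.05). Without that mouse 28 members pass and most differences move further from 0, with Ccl4 reaching -2.90, while Csf1 hardly moves and Sod2, Traf1 and Nlrp3 move closer to 0.

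The wider NF-kB pathway was read from a further list of 68 signalling genes, none of them among the members, of which 61 were tested. Over both slides 3 of the 61 rose and 1 fell in limma, against 8.61% and 0.958% of all genes, the median difference was -0.32, and 51 lay below 0, against 62.5%. Without SI mouse 4, 3 rose and 16 fell, against 10.8% and 9.97%. Birc2, the ubiquitin ligase cIAP1 that works beside Traf2, rose by 1.56 (SE 0.25, adjusted p = 0.00475). Platelet markers, given below, were also higher in SS mice, and their part in this rise was not tested. Birc2 stood at -0.66, 0.46, 0.32 and 0.21 in the SI mice and at 2.17, 1.37, 0.69 and 1.16 in the SS mice of the first slide. The second slide gave -0.85 and -1.07 in SI and 1.03, 0.91, 1.26 and 0.93 in SS mice. Each SS mouse lay above each SI mouse of its slide. Among the genes beside it, Chuk, which encodes the kinase IKK alpha, rose by 0.64 (SE 0.13, adjusted p = 0.00715), and Otulin, a deubiquitinase that removes linear chains, by 0.57 (SE 0.15, adjusted p = 0.0288).

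Tnip2, which encodes ABIN2, a partner of A20 and of the kinase TPL2, fell by 0.63 (SE 0.14, limma adjusted p = 0.0126). Its relatives did not pass: Tnip1 differed by -0.44 (adjusted p = 0.146) and Tnip3 by 0.20 (adjusted p = 0.747). Tnip3 was well above background on 6 arrays. Without SI mouse 4 the 4 genes that passed still did so over both slides. They stood at 1.65 for Birc2, 0.62 for Chuk, 0.52 for Otulin and -0.69 for Tnip2 (adjusted p from 0.00148 to 0.0272). Tnip2 stood at -1.70, -2.24, -1.84 and -1.70 in the SI mice and at -2.66, -2.59, -2.52 and -2.36 in the SS mice of the first slide. Tnip2 on the second slide read -1.67 and -2.17 in SI and -2.43, -2.59, -2.56 and -2.38 in SS mice. Each SS mouse lay below each SI mouse of its slide. On the first slide 0 of the 61 passed, with 6 lower and 3 higher at an unadjusted p under 0.05, against 7.4% and 15.5% of all genes. Within the second slide Birc2 rose by 1.99 (adjusted p = 0.0225), and Tnfsf13b, the B cell survival factor BAFF, fell by 1.81 (SE 0.30, adjusted p = 0.0157). These were 1 higher and 1 lower of the 61, against 3.93% and 1.03% of all genes. On the first slide Tnfsf13b differed by -0.09, and its difference between the slides did not pass (limma adjusted p = 0.148). Il10, Il1r1 and Tlr3 were not well above background on any array.

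Markers of blood cell types moved between the groups beside the members. All 13 platelet markers rose over both slides (median 1.58), against 8.61% of all genes. Their level is the mean over the list after centring each gene on its mean over the arrays. It ran from -1.86 to 0.22 in SI and from 0.32 to 1.20 in SS mice of the first slide. The second slide's range was from -1.43 to -1.17 in SI and from 0.42 to 0.85 in SS mice. Neutrophil markers differed by slide: of 12 tested, 0 passed on the first slide (median 0.29) and 7 fell on the second (median -2.19). Of all genes 1.03% fell on the second slide. In the test of the difference 4 of the neutrophil markers passed, against 0.061% of all genes. Without SI mouse 4, 13 platelet markers rose on each slide, against 16.9% of all genes on the first and 6.53% on the second. In the same fits 2 neutrophil markers rose on the first slide, against 16.9%, and 10 fell on the second, against 3.06%. Their level on the second slide ran from 1.49 to 2.43 in SI and from -1.01 to -0.54 in SS mice, while on the first it ran from -1.005 to -0.22 in SI and from -0.02 to 0.28 in SS mice. The members' own level ran from -0.62 to 0.89 and from -0.37 to 0.17 in the SI and SS mice of the first slide, and from -0.05 to 0.42 and from -0.42 to -0.11 on the second.

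Of the 11 monocyte markers tested, which share Cd14 with the members, 8 were well above background on all arrays. Over both slides 1 of the 11 monocyte markers rose and none fell (median -0.39), against 8.61% and 0.958% of all genes. Their level ran from -0.28 to 0.33 in SI and from -0.10 to 0.15 in SS mice of the first slide, and from -0.34 to 1.04 and from -0.78 to 0.07 on the second. B cell markers, 0 of 9 past the threshold, had a median of -0.46 on the first slide and 0.68 on the second. On the second slide 4 of the 9 were higher in every SS mouse, against 18.9% of all genes. T cell (8 tested), NK cell (8), erythroid (8) and dendritic cell markers (7) had 0 past the threshold over both slides, with medians of -0.43, -0.71, -0.22 and 0.00. Of 4 eosinophil, basophil and mast cell markers 1 rose, against 8.61% of all genes. On the second slide all 8 NK cell markers were lower in every SS mouse, against 19.6% of all genes. Cells are labelled PBMC, yet 9 of 13 neutrophil markers with a probe were well above background on all arrays, and Klrk1, Xcr1, Epx, Mcpt8 and Cpa3 were on none. The part of cell composition in the differences of the members and of the wider list was not tested.

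**Figure D5:**
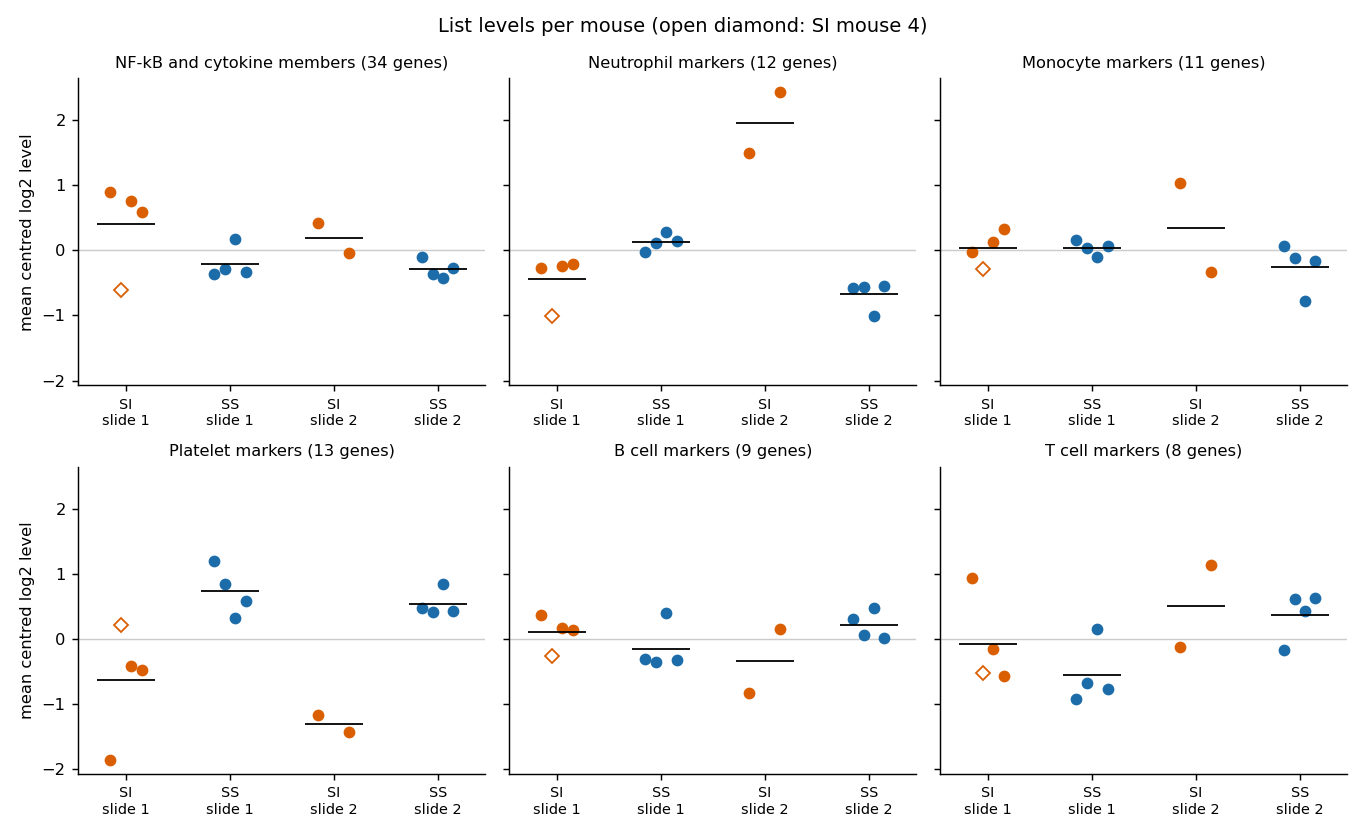
Mean centred log2 level of the 34 members and of 5 marker lists in each mouse, by slide and group, with lines at the group means and an open diamond for SI mouse 4. The members lie lower in SS mice than in 3 of 4 SI mice of the first slide, platelet markers lie higher in all SS mice, and neutrophil markers differ in opposite ways on the slides.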

How the data were processed

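RNA of blood cells from 14 mice was hybridised to one-colour Agilent arrays. The deposited scanner files hold, per the file headers, each spot's intensity before and after background subtraction, with flags for control, outlier, saturated and well-above-background spots. Per the file headers, the authors ran Feature Extraction version 10.7.3.1, whereas the submitters' processing notes name version 9.1. A further deposited table of the authors gives log2 values for 27990 probes; its columns follow the scanner's log2 signals (correlation 0.974 to 0.981), their medians run from 7.21 to 7.74, and its normalization and centring are not given in the sources used here.

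Control spots (3671 of 62976) were left out, as were outlier spots (113 to 174 per array) except where a probe had only such spots, no spot was saturated, and spots of a probe were averaged as log2 processed signal, giving 55681 probes. Each array was scaled by its 75th percentile over the 14504 probes well above background on all arrays. A probe was tested if 6 or more of the 14 arrays detected it above background (24013 probes), which left out 5 members (Il1a, Il6, Cxcl2, Ripk2 and Rel), and each gene was read from its brightest tested probe. Symbols came from RefSeq identifiers, of which 26425 of 31063 matched. Precision is limited by the number of arrays.

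SS was compared with SI using limma 3.58.1 in R 4.3.3 (files read with data.table, version 1.17.8), with slide as a term for both slides and with 4 groups for each slide and their difference; all groups share 1 error estimate per probe. Two-sided p-values were adjusted with the Benjamini-Hochberg method across the 24013 probes, with a threshold of 0.05. The code was tested on simulated data. The per-mouse values are given for members that passed, for the 2 of each role group with the lowest p over both slides, and for the subunits; Ccl4 and Tnf were added after their values were seen. The members and lists were chosen with earlier results of these data known. Alternatives were 4 scalings and corrections, the deposited table, 2 filters, the mean over probes, array weights, the row of the slide, no slide term, fits to 1 slide and leaving out each mouse.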

Additional observations from a re-analysis of the deposited data

Results flagged for a closer look

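In groups of 4 mice, 1 mouse lay far from the other 3 in 10 of 102 gene and group combinations of the tested members (Dixon's test of the gap to the nearest mouse at its 95% critical value), against 9.69% of the combinations over all tested genes, so the share is near the background. Chance gives about 1 in 20 groups of independent values, and the members share the same few arrays. SI mouse 4 was the distant mouse in 7 of them, always on the low side, and on that side for 8.18% of all genes in its group. Among cytokines it read -5.55 for Ccl3, 0.18 for Il1b and -5.85 for Il1rn, where the nearest other SI mouse read -1.74, 2.49 and -3.20. For the TNF receptor 2 gene Tnfrsf1b it read -2.68, for the TNF-induced Tnfaip2 -0.42, for the IkB family gene Nfkbie -2.60 and for Marcksl1 -2.86.

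SS mouse 3 of the same slide was the distant mouse in the other 3, on the high side, as for 5.26% of all genes in its group. It read 2.71 for the inhibitor Nfkbia, -1.56 for Tnfaip3, which encodes A20, and -0.12 for the stress gene Gadd45b, where the nearest other SS mouse read 1.44, -2.99 and -0.97. SS mouse 3 gave the highest value of its group in 23 of the 34 tested members, against 46.6% of all tested genes. Both mice are on the first slide, and the cause was not tested.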

How the results depend on the processing

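Members that fell over both slides numbered 3 (0.958% of all genes), and 1 without a filter on dim probes (0.113%), 26 with array weights (23%) and 14 without SI mice 4 and 27 (8.12%), a choice made after seeing the data. On the first slide the count of 0 became 1 in the authors' deposited value table (Csf1, against 0.0668% of all genes) and 29 with array weights (37.3%), and on the second slide it became 2 with array weights (2.06%). Array weights gave SI mouse 4 a weight of 0.109. Leaving out each mouse in turn gave 2 to 17 members over both slides, 0 to 28 on the first slide, 0 to 3 on the second and 0 to 0 for the difference, with the highest count in each of the first 3 comparisons coming from SI mouse 4. The cause was not tested. Members below 0 ranged from 33 to 34 over both slides, 33 to 34 on the first and 23 to 27 on the second across these fits. Without overlap between the groups, the first slide had 2 members (1.79% of all genes) and 18 without SI mouse 4 (24.8%), and the second had 13 (19.6%), 7 with scaling on all probes (10.3%) and 13 without SI mouse 27 (39%). Leaving out SI mouse 4 or SI mouse 27 for these counts was also a choice made after seeing the data. Relb turned to -0.028 on the second slide with array weights. Csf1 passed under all 11 other settings for both slides and Sod2 under 10 of 11, the exception being no filter (adjusted p = 0.0905), with differences from -2.64 to -0.91 for Csf1 and from -0.71 to -0.40 for Sod2. The deposited table moved the differences by over 1.5 times for Bcl3 (-0.36), Rela (-0.26), Relb (-1.02), Tnfrsf1b (-1.20), Tnip1 (-0.27) and Traf1 (-1.43) as well, and normexp moved Il1rn to -0.43. Probes past the threshold over both slides numbered 1915 and ranged from 1125 without a filter to 6817 with array weights among the settings that kept all mice; on the second slide they numbered 960 and fell to 410 with normexp, 472 in the deposited table, 540 with the row of the slide and 52 without a filter, with 1707 when only that slide was fitted. On the first slide 0 probes passed, with 5700 at an unadjusted p under 0.05, 1 or 2 past the threshold under the 3 other scalings, 168 in the deposited table and 14044 with array weights. For the difference between the slides 11 probes passed, 17 with quantile normalization, 31 in the deposited table and 2409 with array weights. With array weights the members Cd40, Cd83 and Relb passed in this test. Each had a higher difference on the second slide, against 5.49% of all genes. No paired analysis was possible because SS and SI mice share no mouse numbers. Dim probes limit 5 of the 34 tested members: Il1rn and Nlrp3 were well above background on 10 of 14 arrays, Ccl3 and Icam1 on 11 and Ccl4 on 13.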
